A study of Mus musculus with 45 samples.

Results

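The genes described here are 10 cancer genes of distal mouse chromosome 11: Prkar1a, Map2k6, Sox9, Grb2, Itgb4, Sphk1, Socs3, Timp2, Cbx2 and Cbx8. They were chosen by name, as genes that lie beyond 105 Mb of the chromosome, toward its telomere, where gains are shared by mammary tumors of MMTV-c-Myc mice. Of the 10, 8 had a probe under their own name on the arrays, with 16 probes in all, against 289 gene names beyond 105 Mb and 20910 gene names on the autosomes and chromosome X. Sphk1 and Cbx8 had no probe under their names, and for Sphk1 the nearby genes Ube2o and Aanat are given in its place.

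The study compared DNA copy number between genetically engineered mouse (gem) models of breast cancer. Genomic DNA of 45 invasive primary mammary tumors, dissected from female mice, was hybridized against DNA of pooled mouse spleen on Agilent 44K comparative genomic hybridization arrays. By the labels there was 1 array for each tumor. Transgenes under the mouse mammary tumor virus (MMTV) promoter, which is active mainly in mammary epithelium, made up 5 of the models: MMTV-c-Myc with 5 tumors, MMTV-PyMT with 9, and MMTV-Her2/neu, MMTV-H-Ras and MMTV-Wnt1 with 5 each. C3(1)/SV40 T/t-antigens (5 tumors) expresses viral antigens from another promoter. In BRCA1fl/fl;p53+/-;MMTV-cre (5 tumors, the BRCA1 model below) the Cre recombinase under the MMTV promoter deletes Brca1 on a background with a single intact p53 allele, and in p53fl/fl;MMTV-cre transplant (6 tumors, the transplant model below) it deletes p53 in tumors that the labels call transplants. The ages of the mice are not given in the sources used here, and nothing in the labels ties tumors to litters.

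Each value is a log2 ratio of tumor over spleen DNA, averaged over the probes of a gene and centred on the autosomal median of its array. The labels place tumor DNA in the Cy5 channel, but the sign used here is Cy3 over Cy5, opposite to the labels, because 740 of 755 aberrant intervals in the authors' own filtered list (98.0%) carry that sign. With this sign a Brca1 probe, at 101340828 to 101340887 of chromosome 11, read between -5.14 and -1.69 in all 5 tumors of the BRCA1 model, in which Brca1 is deleted. With the dyes as labelled it would read as a gain. Probes well above background made up 96.6% to 99.8% of each array, and the SD of single probes, taken from differences between neighbouring probes, ranged from 0.16 to 0.48 on the log2 scale. In a piece of tumor, a gain in fewer cells and a smaller gain in every cell cannot be told apart. Replicate 3 of C3(1)/SV40 T/t-antigens was nearly identical to replicate 2 of MMTV-Her2/neu (r = 0.960 over 2057 bins of 1 Mb), and replicate 4 of C3(1)/SV40 T/t-antigens to replicate 3 of MMTV-Her2/neu (r = 0.928), whereas the next highest correlation between models was 0.825. Replicate 1 of MMTV-Wnt1 had a ratio of 0.07 at Wnt1, against at least 1.07 in the other tumors of that model. These 5 arrays are called the arrays in doubt, and the main fits kept them as separate tumors. Probes at other altered genes did not mark their models. A Myc probe read 1.00, 0.32, 0.25, -0.18 and -0.52 in replicates 1 to 5 of MMTV-c-Myc. A p53 probe ran from -0.64 to 0.58 in the transplant model, and an Erbb2 (Her2/neu) probe from -0.20 to 0.42 in MMTV-Her2/neu. The labels of those models could not be checked in this way.

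Tumor genomes gain copies in stretches that carry many genes at once, so neighbouring genes on an array share most of their signal, and the edges of the gains in different tumors mark out the stretch that the tumors have in common. The 8 measured genes act in unlike processes. Prkar1a encodes a regulatory subunit that holds protein kinase A inactive, Map2k6 a kinase that activates p38 kinases, and Sox9 a transcription factor of progenitor cells. Grb2 encodes the adaptor that links receptor tyrosine kinases to Ras, and Itgb4 the integrin subunit that anchors epithelial cells at hemidesmosomes. Socs3 encodes an inhibitor of cytokine signaling through Stat3, Timp2 an inhibitor of matrix metalloproteinases, and Cbx2 and Cbx8 chromobox proteins of Polycomb repressive complexes. Sphk1 encodes the kinase that makes sphingosine-1-phosphate.

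In the coordinates of the mm8 build of chromosome 11, the probes of Prkar1a (2) spanned 109480852 to 109485731 and those of Map2k6 (2) 110309040 to 110313595. The single Sox9 probe lay at 112602990 to 112603049. Grb2 (2 probes) followed at 115481126 to 115496766 and Itgb4 (3 probes) at 115792163 to 115817502. The single Socs3 probe lay at 117782351 to 117782410, Timp2 (4 probes) at 118126257 to 118157338, and the single Cbx2 probe at 118840608 to 118840660. Gaps between neighbours ranged from 0.295 Mb, between Grb2 and Itgb4, to 2.88 Mb, between Sox9 and Grb2. The last probe of the chromosome ended at 121652625. Exons and introns under the probes were not assigned here.

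**Figure D1:**
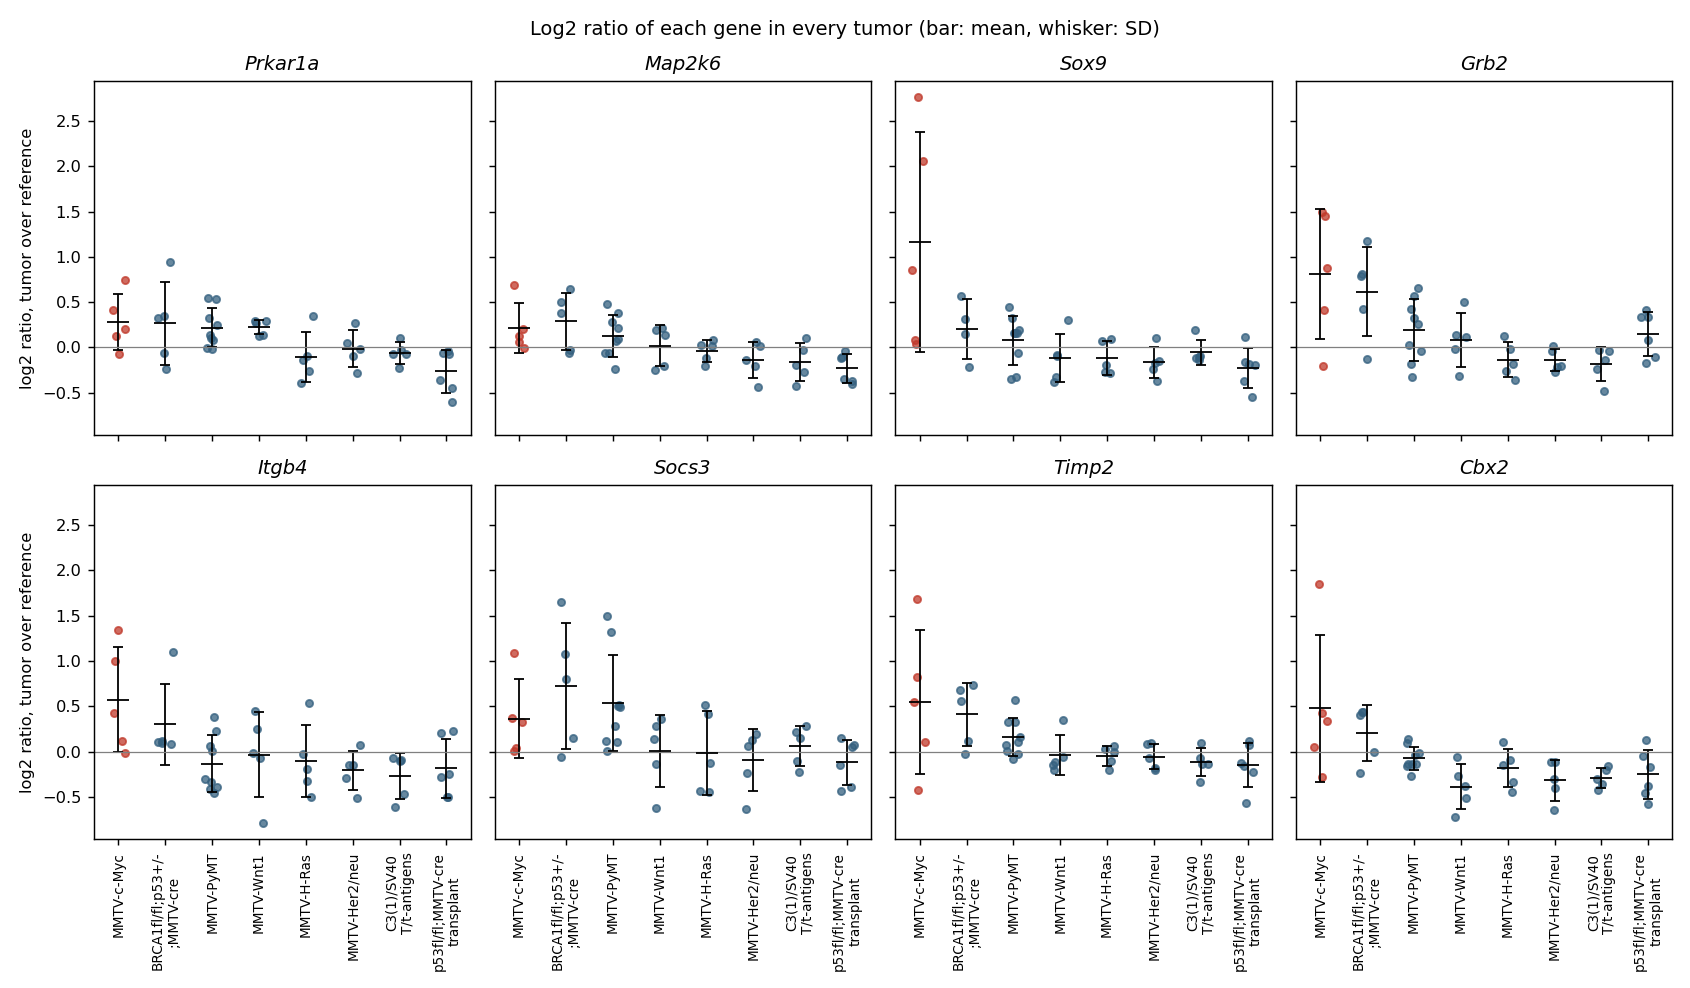
Log2 ratio of tumor over reference (vertical axis) of each of the 8 genes with probes (panels) in every tumor (points), grouped by gem model along the horizontal axis, with the mean as a bar and the SD as whiskers. MMTV-c-Myc is in red, and its highest points, 2.06 and 2.76 at Sox9, are replicates 1 and 3.

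The genes nearest the centromere, Prkar1a and Map2k6, were at moderate levels in the MMTV-c-Myc tumors. The log2 ratios of Prkar1a in replicates 1 to 5 were -0.07, 0.21, 0.41, 0.74 and 0.12. Only replicate 4, and less so replicate 3, stood clearly above 0. Those of Map2k6 were 0.06, 0.13, 0.20, 0.69 and -0.01, so replicate 4 alone was high. In the 40 tumors of the other models Prkar1a ran from -0.60 through a median of -0.01 to 0.95, and Map2k6 from -0.44 through -0.03 to 0.65. No MMTV-c-Myc tumor lay above all others at Prkar1a, and 1 did at Map2k6. MMTV-c-Myc exceeded the average of the other 7 models by 0.24 ± 0.12 (limma SE) for Prkar1a, with an adjusted p of 0.509, and 0.23 ± 0.11 for Map2k6, with an adjusted p of 0.468. Neither passed the threshold of 0.05 for limma's adjusted p over all 20910 gene names. With any single tumor left out, the differences ran from 0.13 to 0.33 for Prkar1a and from 0.11 to 0.29 for Map2k6. Neither gene was called in those fits.

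Sox9 reached the highest ratios of the set. In MMTV-c-Myc replicates 1 to 5 its log2 ratio was 2.06, 0.08, 2.76, 0.85 and 0.04. The values fell into high ones in replicates 1, 3 and 4 and values near 0 in replicates 2 and 5. The other models gave 39 values, since the probe was flagged as an outlier in 1 tumor of the BRCA1 model, and these ran from -0.55 through a median of -0.10 to 0.57. The groups overlapped, with 3 of the 5 MMTV-c-Myc tumors above every other tumor. The difference from the other models was 1.21 ± 0.21 (limma SE), the largest of the 8, and it passed with an adjusted p of 0.000388.

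Grb2 and Itgb4, which lie together, were high in largely the same tumors. Grb2 had log2 ratios of 1.45, 0.42, 1.50, 0.88 and -0.20 in replicates 1 to 5. Replicate 5 was the only one below the median of the other 40 tumors, which ran from -0.48 through -0.02 to 1.17. Itgb4 had 1.00, 0.12, 1.34, 0.43 and -0.02, against -0.79, -0.10 and 1.10 as the lowest, median and highest of the other tumors. At Grb2, 2 MMTV-c-Myc tumors lay above all others, and at Itgb4 1 did. Grb2 was higher in MMTV-c-Myc by 0.73 ± 0.17 (limma adjusted p = 0.0196). The difference of Itgb4 was 0.66 ± 0.17, with an adjusted p of 0.0628, and did not pass. The Itgb4 probe nearest the telomere, at 115817443 to 115817502, was well above background on 16 of 45 arrays only and scattered around its segment with an SD of 0.926, more than 99.2% of the probes of the chromosome. It read 0.01, -0.14, 0.89, -0.29 and 0.02 in the MMTV-c-Myc tumors where the first Itgb4 probe read 2.19, 0.54, 1.60, 0.85 and 0.01. With probes well above background on every array only, the difference of Itgb4 was 0.83, with a limma adjusted p of 0.000715.

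Sphk1, between Itgb4 and Socs3 in the RefSeq order of genes (GRCm38.p6), was judged by the neighbours Ube2o, at 116371371 to 116396091, and Aanat, at 116412712 to 116412758. Ube2o encodes a ubiquitin-conjugating enzyme and Aanat the enzyme that acetylates serotonin in melatonin synthesis. Ube2o had log2 ratios of 1.24, 0.29, 1.64, 0.88 and 0.16 in the MMTV-c-Myc tumors. Aanat had 1.42, 0.30, 1.42, 0.60 and 0.03, so both neighbours were high in the tumors where Grb2 was high. Both were called higher in MMTV-c-Myc, by 0.79 ± 0.14 for Ube2o (limma adjusted p = 0.000671) and by 0.81 ± 0.14 for Aanat (adjusted p = 0.000431). These values belong to the neighbours, which were not shown to lie on both sides of Sphk1, and Sphk1 itself was not measured.

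Toward the telomere lie Socs3, Timp2 and Cbx2. Timp2 had log2 ratios of 1.69, 0.54, -0.42, 0.82 and 0.10, against -0.57, -0.01 and 0.74 as the lowest, median and highest of the other 40 tumors. Cbx2 had 1.85, 0.34, -0.27, 0.43 and 0.06, against -0.72, -0.16 and 0.44. For both genes replicate 1 was the highest, and replicate 3, which was the highest at Sox9 and Grb2, was the lowest. Socs3 had 0.01, 0.33, 0.04, 1.08 and 0.37, against -0.63, 0.14 and 1.65, and no MMTV-c-Myc tumor was above all others. Cbx2 was higher in MMTV-c-Myc by 0.66 ± 0.16 (limma adjusted p = 0.0219). The difference of Timp2 was 0.52 ± 0.15 (adjusted p = 0.128) and that of Socs3 0.21 ± 0.20 (adjusted p = 0.785), and neither passed. With any single tumor left out, the difference of Socs3 ran from 0.03 to 0.30, and the gene was not called. The difference of Timp2 was 0.24 without MMTV-c-Myc replicate 1 (limma adjusted p = 0.999), 0.76 without replicate 3 (0.00581) and 0.63 without replicate 5 (0.0445). The Socs3 probe scattered more around its segment than 94.3% of the probes of the chromosome, with an SD of 0.483, and in replicate 1 it read 0.01 inside a segment with a mean of 1.58.

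**Figure D2:**
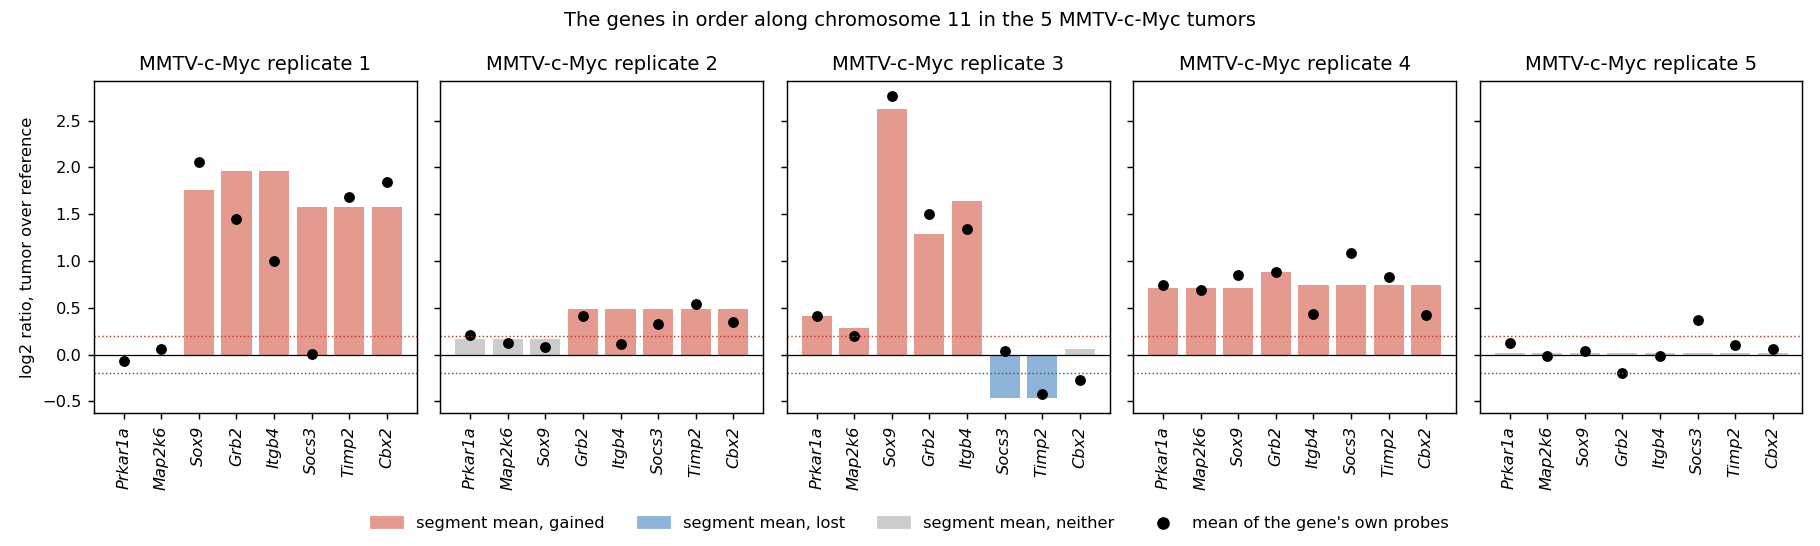
Mean log2 ratio of each gene's own probes (points) and mean of the segment that holds it (bars, coloured as gained, lost or neither) for the 8 genes in order along chromosome 11, with a panel for each MMTV-c-Myc tumor and dotted lines at 0.2 and -0.2. Replicate 1 rises at Sox9, replicate 2 at Grb2, replicate 3 rises steeply at Sox9 and falls below 0 at Socs3 and Timp2, replicate 4 is raised throughout, and the bars of replicate 5 stay near 0.

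Of the 8 genes, then, 3 were called higher in MMTV-c-Myc than in the mean of the other models, Sox9, Grb2 and Cbx2, and none lower. Over all gene names, 0.626% were called higher in this comparison. Beyond 105 Mb of chromosome 11 it was 121 of 289, so the calls among the 8 lay amid calls in their neighbours. The median difference was 0.59 over the 8 genes, 0.59 over the 289 names beyond 105 Mb and -0.01 over all gene names. At an unadjusted limma p under 0.05, 6 of the 8 differed, all higher, against 2051 of 20910 gene names in all and 262 of 289 beyond 105 Mb. Exact permutation tests of single genes over tumors, 2-sided and unadjusted, gave p = 0.000242 for Sox9, 0.00202 for Grb2, 0.00203 for Itgb4, 0.0024 for Cbx2 and 0.00981 for Timp2. The same exact test gave 0.0785 for Map2k6, 0.105 for Prkar1a and 0.481 for Socs3.

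The spread of the MMTV-c-Myc tumors was wider than that of any other model at Sox9, Grb2, Itgb4, Timp2 and Cbx2. At Sox9 the SD was 1.21 (n = 5), against 0.14 to 0.33 in the other models. The SE of its difference was 0.54 when built from each model's own SD, against 0.21 with the spread that limma pools over models. For Grb2 the corresponding SE were 0.32 and 0.17, and for Cbx2 0.36 and 0.16. Sox9, Grb2 and Cbx2 stayed called without the arrays in doubt, and Sox9 stayed called with any single tumor left out. Grb2 lost its call without MMTV-c-Myc replicate 1 (difference 0.57, adjusted p = 0.391), replicate 3 (0.55, 0.215) or replicate 4 (0.71, 0.0788), and also with the 40 other tumors taken as 1 group (0.0813). Cbx2 lost it without replicate 1 (difference 0.32, adjusted p = 0.862) or replicate 4 (0.68, 0.0693), all by limma. Without replicate 4 both differences stayed close to those over all tumors (0.73 and 0.66). Each MMTV-c-Myc tumor was also set against the other models' tumors hybridized on its own slide. Sox9, Grb2 and Itgb4 were then higher in 5 of 5 tumors, with mean differences of 1.26 ± 1.31 (SD), 0.80 ± 0.63 and 0.80 ± 0.55, and Cbx2 was higher in 4 of 5, by 0.65 ± 0.74. A limma fit within those slides, on 16 arrays, called none of the 8 genes and 0 of all 20910 gene names. Sox9 had an adjusted p of 0.403 in that fit, and 5 of the 8 had an unadjusted p under 0.05.

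**Figure D3:**
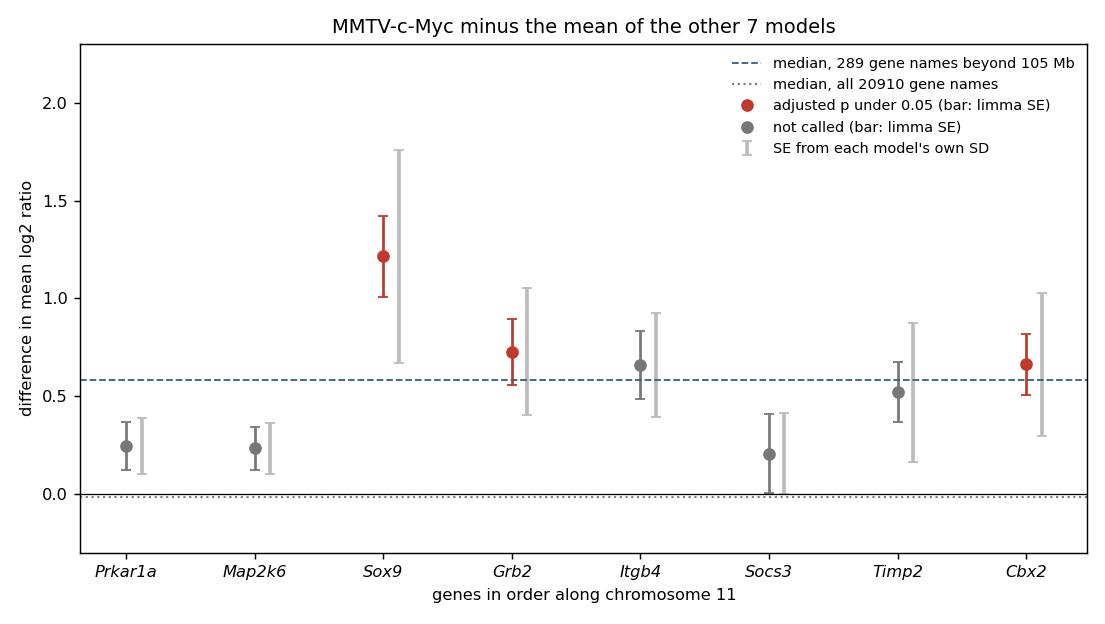
Difference in mean log2 ratio between the MMTV-c-Myc tumors and the other 7 models (points) for each gene in order along the chromosome, red where limma's adjusted p was under 0.05, with the limma SE as bars on the points and the SE from each model's own SD as pale bars beside them. Dashed and dotted lines mark the medians of the 289 gene names beyond 105 Mb and of all gene names, and Sox9 has the largest difference, 1.21, and Socs3 the smallest, 0.21.

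Which genes lay in the gain shared by the MMTV-c-Myc tumors was read from segments of chromosome 11, taken as gained at a mean log2 ratio of at least 0.2 and as lost at -0.2 or less. Grb2 and Itgb4 were gained in 4 of 5 tumors, or 80.0% (95% Clopper-Pearson interval 28.4 to 99.5). Sox9, Socs3, Timp2 and Cbx2 were gained in 3 of 5, and Prkar1a and Map2k6 in 2 of 5. Over the gene names of chromosome 11, 12.7% were gained in at least 3 of the 5 tumors and 5.09% in at least 4, so Grb2 and Itgb4 belonged to the smaller fraction. These shares carry the error of counting 5 tumors. The genes were taken from the region of the shared gain, and the counts describe where each sits in it.

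Among the 5 tumors, 4 shared gained segments from 114669885 to 115968709, a stretch of 88 probes, and again from 116271461 to 117702635, over 55 probes. The first stretch held Grb2 and Itgb4, and the second held Ube2o and Aanat, the neighbours of Sphk1. Both neighbours were gained in 4 of 5 MMTV-c-Myc tumors. On the centromeric side, 3 tumors shared the stretch with Sox9, from 112480026 to 113287361, and 2 shared that with Prkar1a and Map2k6, from 105729534 to 110935548. On the telomeric side, 3 tumors shared the stretch from 117782351 to the last probe, with Socs3, Timp2 and Cbx2.

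The gains differed in their edges and height. In replicate 1 the gain ran from 112480026 to the last probe at a mean of 1.75 and began between Map2k6 and Sox9. In replicate 2 it ran from 114669885 to the last probe at a mean of 0.49, and the segment before it, with Prkar1a, Map2k6 and Sox9, had a mean of 0.16, under the threshold. Replicate 4 was gained from 103767005 to the last probe at a mean of 0.75, and held all 8 genes. Replicate 3 had the steepest profile, with segment means of 0.42 at Prkar1a, 0.28 at Map2k6, 2.62 at Sox9, 1.29 at Grb2 and 1.64 at Itgb4. Beyond Itgb4 it dipped to -0.40 from 115980718 to 116177829 and returned to 1.57 over the neighbours of Sphk1. It then turned to a loss at Socs3 and Timp2, from 117782351 to 118452761, with a mean of -0.46, and to 0.06 at Cbx2. Replicate 5 had a mean of 0.02 across the region and no gain. With a threshold of 0.1 in place of 0.2, replicate 2 counted as gained at the first genes too, and Prkar1a and Map2k6 stood at 60.0% and Sox9 at 80.0% of the tumors. With a threshold of 0.3, Map2k6 was gained in replicate 4 alone.

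**Figure D4:**
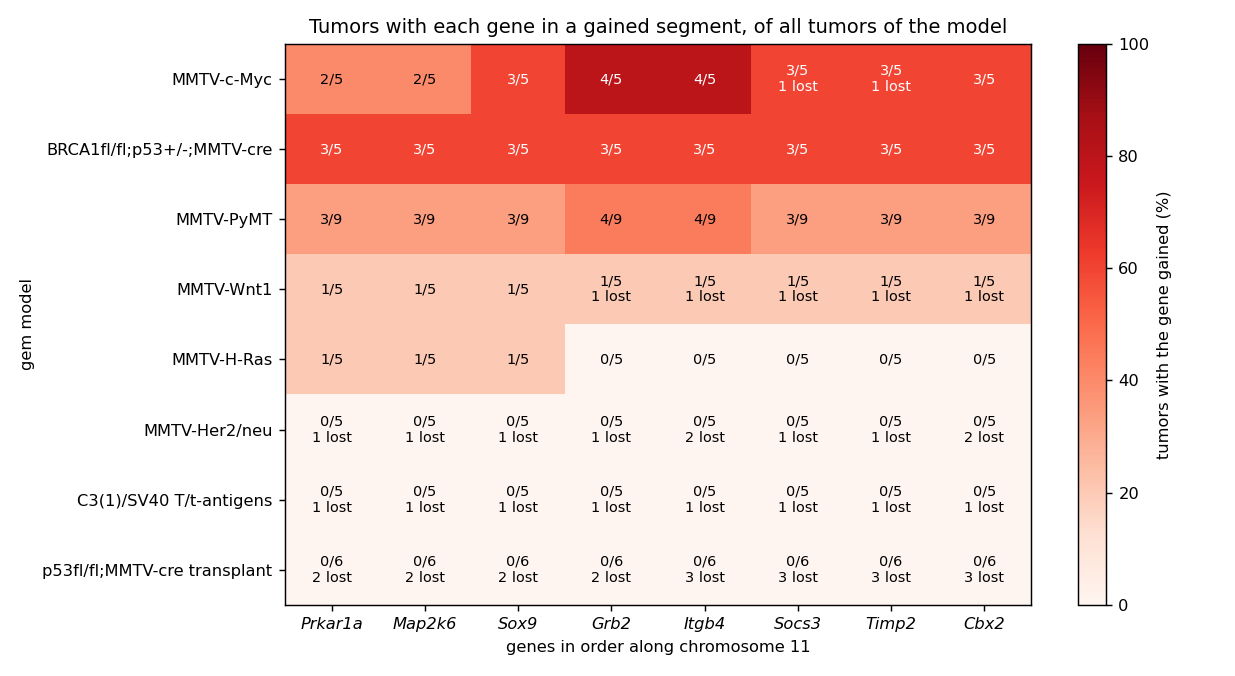
Number of tumors with each gene (columns, in order along chromosome 11) in a gained segment, of all tumors of each gem model (rows), coloured by the percent gained, with the number lost in the same cell. Grb2 and Itgb4 in MMTV-c-Myc stand highest, at 4 of 5 tumors, the BRCA1 model holds 3 of 5 at every gene, and the 3 lowest rows hold no gain.

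In the other models, 8 of 40 tumors (95% interval 9.05% to 35.6%) were gained at each gene from Prkar1a to Itgb4, and 7 of 40 (7.34% to 32.8%) at Socs3, Timp2 and Cbx2. Without the arrays in doubt the counts were 7 and 6 of 35. The BRCA1 model was gained at all 8 genes in 3 of 5 tumors. The gain began at 102621434 in replicate 3, at 74660513 in replicate 2 and at 72267061 in replicate 5, and ran to the last probe, apart from short segments of up to 8 probes centromeric to the 8 genes in replicates 2 and 5. The means of the segments that held the genes ran from 0.34 to 0.70. In MMTV-PyMT, replicates 1, 4 and 5 were gained over the whole chromosome, apart from 1 segment of 6 probes in replicate 5. MMTV-PyMT replicate 9 had 4 separate gained segments beyond 105 Mb. The one from 113542922 to 116765731, at a mean of 0.52, held Grb2 and Itgb4 and no other measured gene of the 8. It covered the first stretch shared in MMTV-c-Myc and part of the second. The other segments, at means of 0.58, 0.58 and 0.69, held none of the 8. MMTV-H-Ras replicate 1 was gained from 107563689 to 112642197 at a mean of 0.23, with Prkar1a, Map2k6 and Sox9 and none of the others. The only gained MMTV-Wnt1 tumor was replicate 1, an array in doubt. C3(1)/SV40 T/t-antigens, MMTV-Her2/neu and the transplant model had no gain at any of the 8 genes in 5, 5 and 6 tumors, with upper 95% limits of 52.2%, 52.2% and 45.9%.

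Losses at these genes occurred in 7 of the 40 other tumors. In the transplant model, replicates 1 and 6 were lost over the whole chromosome, apart from short segments of up to 9 probes, and all 8 genes lay in the loss. Replicate 3 was lost from 115766016 to the last probe, with Itgb4, Socs3, Timp2 and Cbx2, and the segment before it, at -0.198, just missed the threshold. Replicate 5 of C3(1)/SV40 T/t-antigens was lost over the whole chromosome at a mean of -0.29, and replicate 5 of MMTV-Her2/neu over the whole chromosome apart from segments of 8 and 5 probes, at -0.23 over the 8 genes. Replicate 5 of MMTV-Wnt1 was lost from 114881382 to 119209487, from Grb2 to Cbx2, at -0.23. Replicate 2 of MMTV-Her2/neu, an array in doubt, had short losses at Itgb4 and at Cbx2.

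By mean log2 ratio, MMTV-c-Myc stood first of the 8 models at 6 genes, and the BRCA1 model stood first at Map2k6 (0.29 ± 0.32, SD) and Socs3 (0.72 ± 0.70) and second at the others. MMTV-PyMT came next at Map2k6, Sox9, Grb2, Timp2 and Cbx2. Between neighbours in these orders the gap was smaller than the larger SD of the pair, except at Prkar1a between MMTV-PyMT (0.22 ± 0.21, n = 9) and MMTV-Her2/neu (-0.02 ± 0.20, n = 5). The highest value of each gene outside MMTV-c-Myc was always in the BRCA1 model, in replicate 2 or 3.

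In the BRCA1 model, replicate 3 stood above 0.3 at each of the 8 genes and replicate 1 at none. Grb2 had log2 ratios of -0.12, 0.78, 1.17, 0.42 and 0.81 in replicates 1 to 5, and Timp2 -0.03, 0.69, 0.74, 0.11 and 0.56. Sox9 had 0.15 in replicate 1, 0.57 in replicate 3, -0.22 in replicate 4 and 0.32 in replicate 5. None of these Sox9 values came near those of MMTV-c-Myc replicates 1 and 3. Itgb4 had 0.11, 0.12, 1.10, 0.10 and 0.08, so replicates 2 and 5, high at Grb2, were not high there. Socs3 had -0.06, 1.65, 0.80, 1.08 and 0.15, and replicate 4 was high there although it held no gained segment at that probe. In MMTV-PyMT, Socs3 was likewise high in replicates 8 and 9, at 1.32 and 1.50, outside any gained segment. In MMTV-PyMT replicate 9 Grb2 stood at 0.42, Itgb4 at 0.01 and Timp2 at 0.16.

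Each of the other models was compared with the mean of the rest by the same limma fit, and 1 of the 56 differences was called. Prkar1a had log2 ratios of -0.36, -0.07, -0.60, -0.04, -0.06 and -0.45 in replicates 1 to 6 of the transplant model, low in replicates 1, 3 and 6 and near 0 in the rest. It was lower in that model by -0.38 ± 0.11 (adjusted p = 0.0186), in a comparison that called 16.5% of all gene names. Without replicate 3 or replicate 6 of that model no member was called. All tumors of the transplant model lay on 2 slides that held no other model. The BRCA1 model and MMTV-H-Ras likewise shared no slide with another model. In comparisons with these models, a difference of model cannot be told apart from one of slide. The BRCA1 model had higher means at all 8 genes, by 0.12 to 0.62. None of its differences passed (5.01% of all gene names did), 6 had an unadjusted p under 0.05, and the lowest adjusted p was 0.0638, for Socs3. In MMTV-H-Ras, MMTV-PyMT, MMTV-Wnt1, MMTV-Her2/neu and C3(1)/SV40 T/t-antigens no member was called and 1 in each had an unadjusted p under 0.05. Over all gene names these comparisons called 4.29%, 0.588%, 0.0765%, 0.0287% and 0.00478%. Without BRCA1 model replicate 1 or MMTV-c-Myc replicate 1, 5 of the 56 differences were called.

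Against each model in turn, 13 of the 56 differences of MMTV-c-Myc were called, all higher in MMTV-c-Myc. The comparisons share the MMTV-c-Myc tumors and are not independent. Against the transplant model 6 genes were called, Prkar1a, Map2k6, Sox9, Itgb4, Timp2 and Cbx2, where 5.96% of all gene names were called. Sox9 and Grb2 were called against MMTV-H-Ras (2.04%), MMTV-Her2/neu (0.67%) and C3(1)/SV40 T/t-antigens (0.359%), and Sox9 against MMTV-Wnt1 (0.253%). Against MMTV-PyMT (0.0239%) and the BRCA1 model (2.64%) limma called none of the 8, with 5 and 1 at an unadjusted p under 0.05. The largest of these differences was at Sox9, at 1.08 against MMTV-PyMT (adjusted p = 0.0615) and 0.95 against the BRCA1 model (adjusted p = 0.0651). Socs3 had a lower mean in MMTV-c-Myc than in those models, by -0.17 and -0.36. The count over all models was 2 without MMTV-c-Myc replicate 1, 8 without its replicate 4 or without replicate 3 of the transplant model, 24 without MMTV-c-Myc replicate 5 and 7 without the arrays in doubt.

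The genes whose ratios ran most like those of the 8 across tumors lay on the same chromosome, and the values compared share the same 45 arrays. The most alike was Slc39a11, a zinc transporter gene, for Sox9 (Pearson r = 0.937 over 44 arrays, 0.459 Mb away) and also for Itgb4 (r = 0.764 over 45 arrays, 2.51 Mb away). For Timp2 it was Azi1 (r = 0.947, 1.72 Mb), for Cbx2 Aspscr1 (r = 0.919, 1.66 Mb), for Grb2 C630004H02Rik (r = 0.88, 0.302 Mb) and for Prkar1a Mettl2 (r = 0.913, 4.53 Mb). Map2k6 was most like an unnamed transcript 0.028 Mb away (r = 0.811). Socs3 differed, with its most alike partner 39.6 Mb away on the same chromosome (r = 0.84).

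Genes that work with the members but lie elsewhere were read from lists of their pathways and families, 65 names in all, of which 52 had a probe. In the comparison of MMTV-c-Myc with the other models limma called 0 of the 52 in either direction, against 6 at an unadjusted p under 0.05. Over all 20910 gene names limma called 131 higher and 5 lower, and 2051 had an unadjusted p under 0.05. The median difference was 0.13 over 8 receptor tyrosine kinase adaptors, 0.10 over 6 genes of the sphingosine pathway, 0.04 over 9 of Polycomb repressive complex 1 and 0.01 over 5 of the SOCS family. It was -0.02 over 5 subunits of protein kinase A, -0.04 over 10 kinases of the p38 and related cascades and -0.08 over 8 hemidesmosome genes. Of the SoxE genes 1 had a probe, at -0.15, and none of the 3 other TIMP genes did. The most negative difference was that of Prkaca, a catalytic subunit of protein kinase A on chromosome 8, at -0.52 ± 0.14 (adjusted p = 0.0593). Prkaca had log2 ratios of -1.11, -0.30, -0.23, -0.24 and -0.46 in the MMTV-c-Myc tumors, below 0 in all 5.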

How the data were processed

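Genomic DNA of 45 mammary tumors of 8 gem models was hybridized with pooled spleen DNA to 2-colour Agilent arrays on 18 slides, scanned on 10 days. The deposited scanner files hold, per spot, Cy5 and Cy3 intensities and the authors' log10 ratio of Cy5 over Cy3 (LogRatio), background-subtracted and dye-normalized by Feature Extraction, version 9.5.1.1 in the file headers and 10.7 in the submitters' processing notes. The authors' interval table, in log2 units from the ADM-2 aberration caller on the mm8 build, was used for the sign of the ratio and as an alternative. The other interval lists are subsets of it and were not used.

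Log10 ratios were turned to log2 with the sign reversed (Cy3 over Cy5), control spots and outlier flags were left out, spots of a probe were averaged, and each array was centred on its autosomal median of 40666 probes. Gene values are means over the probes of a gene name. Models were compared over 20910 gene names with limma 3.58.1 in R 4.3.3 (lmFit and eBayes, 1 mean per model, Benjamini-Hochberg adjustment, threshold 0.05). Chromosome 11 was segmented per array by circular binary segmentation (split statistic over 6, at least 5 probes a segment), and a gene counted as gained where such segments held 50% or more of its probes. Tested on simulated data, the limma fit called 88% of 200 gene names shifted by 0.8 and 22.5% of those shifted by 0.4. Exact permutation tests over 1221759 assignments of tumors (1086008 for Sox9) were added after the values were seen.

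All members with probes are given. Some neighbouring genes are not reported here. The partner of each member is the gene name with the highest Pearson r across arrays. The members and lists were chosen with earlier results of these data known. The labels do not state in words whether the tumors of a model came from separate mice, and p-values measure only the spread between these tumors. Clopper-Pearson intervals cover counting error only, and the number of arrays limits the precision. No probe or genome sequence of the build was used. Alternatives were other background correction, loess, centring, probe filters, slide and scan date as random blocks, array weights, other thresholds, and each tumor left out.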

Additional observations from a re-analysis of the deposited data

Results flagged for a closer look

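Among 64 sets of values, 1 for each of the 8 genes in each model, 3 held a tumor far from the rest of its model, and chance alone marks about 1 set in 20. Sox9 stood at 0.19 in replicate 4 of C3(1)/SV40 T/t-antigens, where the nearest other tumor of the model was at -0.10. Itgb4 stood at 1.10 in replicate 3 of BRCA1fl/fl;p53+/-;MMTV-cre, where the nearest was at 0.12. Timp2 stood at 0.35 in replicate 1 of MMTV-Wnt1, where the nearest was at -0.06. The first and last of these arrays are among the arrays in doubt, and their part in these values was not tested.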

How the results depend on the processing

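With the dyes as labelled every sign turned, with differences of -0.24 for Prkar1a, -0.23 for Map2k6, -1.21 for Sox9, -0.73 for Grb2, -0.66 for Itgb4, -0.21 for Socs3, -0.52 for Timp2 and -0.66 for Cbx2. Then 0 members were called higher, and Sox9, Grb2 and Cbx2 were called lower (6 at an unadjusted limma p under 0.05, all lower). Gained segments held 0.4 members per MMTV-c-Myc tumor with that sign, against 4.8 ± 2.95 (SD). For MMTV-c-Myc against the average of all other models (3 called), the count was 6 with array weights and 1 at an adjusted p under 0.01. Within slides it was 0, where 0 of all 20910 gene names were called and 5 members had an unadjusted limma p under 0.05. The exact permutation test compared MMTV-c-Myc with the pooled other tumors instead of the model means. By it 5 members had an unadjusted p under 0.05, against 6 by the main limma fit. Without a single tumor the number called by limma ran from 1, without MMTV-c-Myc replicate 1 or 4, to 5, without replicate 5. For each other model against the rest (1 called), it was 0 with normexp background correction (5 of 56 at an unadjusted p under 0.05) and with array weights (4 of 56), 3 with loess, 2 with probes well above background on every array, and 0 to 5 without a single tumor. For MMTV-c-Myc against each model (13 called), it was 20 with normexp, 20 with array weights, 7 without the arrays in doubt, and 2 to 24 without a single tumor. Without a single tumor, members in gained segments ran from 4.0 to 6.0 per MMTV-c-Myc tumor and from 1.36 to 1.56 per tumor of the other models (1.53 as reported), where the processing alternatives ran from 0.8 with normexp to 1.98 with a threshold of 0.1. Array weights called 2145 of 20910 gene names, against 136. Cbx2 lost its call with normexp (adjusted p = 0.0744). Itgb4 was called with normexp (adjusted p = 0.000242), array weights (0.000698), the median over probes (0.0218) and scan date as a random block (0.0246), and Timp2 with normexp (0.0307), by limma. Prkar1a (limma adjusted p = 0.000781) and Map2k6 (0.0137) were called with array weights alone. Socs3 had no value with probes well above background on every array. The cause of these changes was not tested. No paired analysis was possible because the labels give no replicate numbers shared between models, other than the comparison within slides given in the report, which sets each MMTV-c-Myc tumor against its slide mates. Dim probes, such as the last of Itgb4, limit single-probe readings.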
